A study of Mus musculus with 137 samples.

Results

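Translation initiation factors were examined gene by gene in the mouse duodenum after Cr(VI) in drinking water. The members were all genes with a symbol starting with Eif and a digit from 1 to 6, each read by its probe with the highest total count. The rule found 54 of the 21450 genes in the table, and 20 of them carried more than 1 probe. After a filter on low counts 53 members were tested. The exception was Eif2s3y, the Y-linked paralog of Eif2s3x, which had 0 counts in every library of these female mice, where 3 counts over all libraries would have been 0.00594 CPM (counts scaled by library size). The members fell into 5 genes of eIF1 and eIF1A, 6 of eIF2, 4 eIF2 kinases, 5 of eIF2B, 13 of eIF3, 3 of eIF4A, 2 of eIF4B and eIF4H, 4 of eIF4E, 4 of the eIF4E-binding proteins and the eIF4E transporter, 3 of eIF4G, 2 of eIF5 and eIF5B, 2 of eIF5A, and eIF6.

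Wildtype female B6C3F1 mice drank water with 0, 0.1, 1.4, 5, 20, 60 or 180 ppm Cr(VI), given as sodium dichromate dihydrate, for 7 or 90 days, and tissue was taken at day 8 or day 91. Crypt and villus were separated on slides from fixed, paraffin-embedded duodenum of each mouse, and RNA was read by TempO-Seq, in which paired probes are joined on a transcript and counted by sequencing. The labels gave 71 crypt and 66 villus libraries from 71 mice in 28 groups. A group held 5 libraries, except 6 in crypt at 0.1 ppm on day 8 and 4 in villus at 5, 20 and 180 ppm on day 8 and in untreated villus on day 91. The untreated mice drank tap water, and all 6 doses of a compartment and day were set against the same untreated libraries.

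Translation of most messages begins when eIF2 carries the initiator methionine tRNA to the small ribosomal subunit, with eIF1, eIF1A, eIF3 and eIF5 bound beside it. The eIF4F complex, made of the cap-binding eIF4E, the scaffold eIF4G and the RNA helicase eIF4A, brings the message to that subunit. The pathway is held back when kinases phosphorylate eIF2, which blocks its exchange factor eIF2B, and when 4E-BPs take eIF4E away from eIF4G. Crypts hold the dividing cells of the intestinal lining, and villi hold the cells that have stopped dividing.

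Library totals ran from 1463938 to 7199801 counts with a median of 3592983, and 12957 to 23112 probes had a count. A pair of untreated day 8 libraries went against their compartment. The villus library of mouse 48 had 11544.5 CPM over 6 crypt markers, where the other untreated day 8 villus libraries had 1295 to 5209 CPM, and the crypt library of mouse 49 had 1424 CPM, below the 5245 to 19438 CPM of the other crypt libraries. Results on day 8 are therefore also given without both. Untreated villus libraries of day 91 had 1667014 to 2678299 counts and 13091 to 15835 probes detected, against 3030885 to 4574064 counts and 15157 to 18947 probes at 180 ppm. In bulk tissue, fewer cells of a type and less RNA per cell cannot be told apart. Levels are not compared between genes, because probes differ in how well they capture their target.

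Members rose with dose in both compartments, and most widely in the villus at day 91. A member was called when its adjusted p was under 0.1, from edgeR's quasi-likelihood test with Benjamini-Hochberg adjustment over 26365 probes. Over the 24 dose comparisons there were 148 calls of a higher level and 10 of a lower level, spread over 33 members. The share of all probes called is given with each dose below. At 180 ppm, Eif4a1 and Eif5a were the 2 members called in all 4 sets of compartment and day. A further 4 were called in 3 sets, 14 in 2 sets and 7 in 1 set, and 26 in none. How many of all probes were called in as many sets, or at any dose, was not counted. The sets are not independent, since most mice gave both a crypt and a villus library. The heat map of changes by dose shows the calls of each member.

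**Figure D1:**
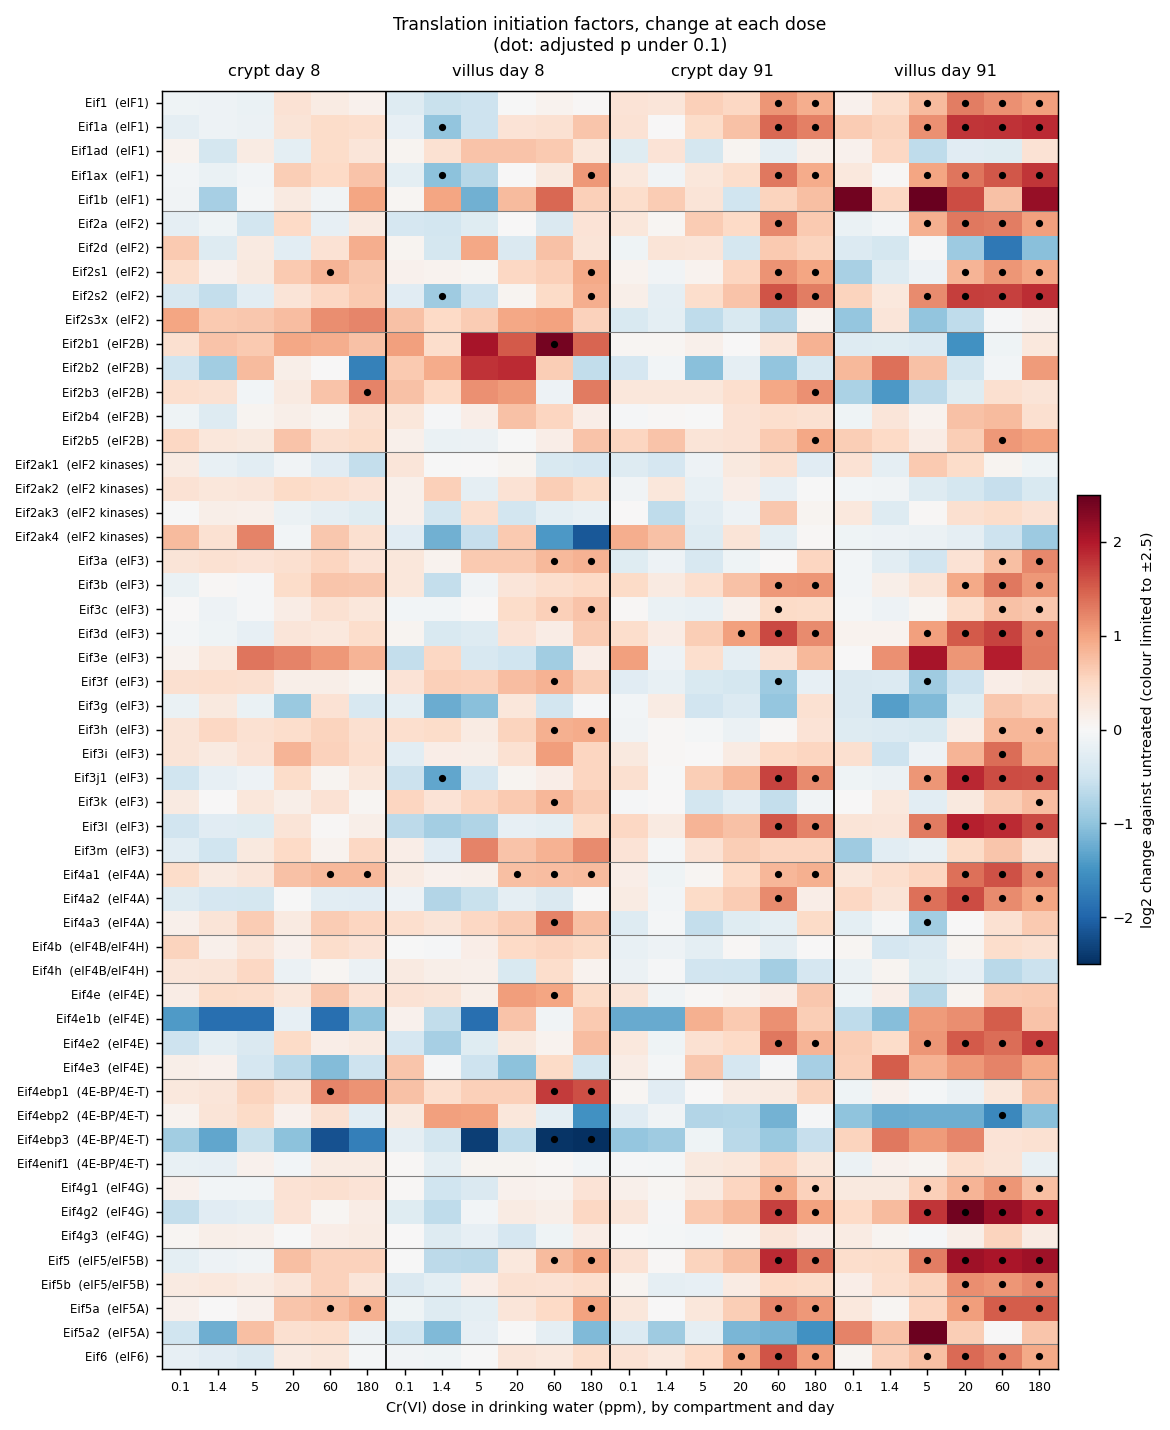
Log2 change of 53 initiation factors (rows, grouped by factor) at 6 doses in ppm against the untreated libraries of the same compartment and day (columns). Red is higher and blue lower, the colour stops at 2.5 in either direction, and a dot marks an adjusted p under 0.1. Dots concentrate at 60 and 180 ppm, and in villus at day 91 they begin at 5 ppm.

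In the crypt at day 8 no member was called at 0.1, 1.4, 5 or 20 ppm, where 0.0152%, 0.00379%, 0.0152% and 0.247% of all probes were called, with 5, 3, 2 and 8 members at an unadjusted p under 0.05. DESeq2 called 2 members at 20 ppm, Eif4a1 and Eif5a, and none at the lower doses. At 60 ppm 4 members rose and none fell, against 0.755% of all probes higher and 1.38% lower. Without mouse 49 or without both doubted libraries that count was 0. At 180 ppm 3 members rose and none fell, against 1.05% and 3.08% of all probes, and without the doubted libraries 2 rose. Refits without 1 library called 2 to 6 there. DESeq2 and several other settings each called more members at 180 ppm, with the counts given in the closing section. The median change of the members at 180 ppm was 0.34 on the log2 scale, where that of all probes was -0.04.

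In the villus at day 8 no member was called at 0.1 ppm, where 0% of all probes were called and 1 member had an unadjusted p under 0.05. At 1.4 ppm 4 members fell and none rose, against 1% of all probes lower and 0.520% higher. These were Eif1a (fell by 0.99 on the log2 scale), Eif1ax (fell by 1.02), Eif2s2 (fell by 0.89) and Eif3j1 (fell by 1.31), and none of them was called without mouse 48. At 5 ppm the count was 0, with 0.357% of all probes called, 11 members at an unadjusted p under 0.05 and 2 called by DESeq2. At 20 ppm Eif4a1 alone rose, against 1.11% of all probes higher and 1.5% lower, a call lost in separate fits and without mouse 46, 47, 49, 367, 368 or 369, while DESeq2 called 5 members there (Eif3a, Eif3c, Eif3f, Eif4a1 and Eif4e). At 60 ppm 11 members rose and 1 fell, against 2.94% and 3.63%, and at 180 ppm 10 rose and 1 fell, against 2.5% and 3.46%. Without the doubted libraries the counts higher at 60 and 180 ppm were 14 and 15. The median change at 180 ppm was 0.50 for the members and -0.09 for all probes.

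In the crypt at day 91 no member was called at 0.1, 1.4 or 5 ppm, where 0%, 0% and 0.00379% of all probes were called, with 1, 2 and 10 members at an unadjusted p under 0.05 and none called by DESeq2. When each compartment and day was fitted apart, 5 members were called at 5 ppm. Eif3d and Eif6 rose at 20 ppm, against 0.372% of all probes higher and 0.163% lower, and the separate fit called 16 members there. At 60 ppm 19 members rose and 1 fell, against 9.78% and 4.73% of all probes. At 180 ppm 18 rose and none fell, against 3.80% and 2.69%. The members' median change was 0.51 at 60 ppm and 0.54 at 180 ppm, where that of all probes was 0.05 and under 0.01 in size.

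In the villus at day 91 no member was called at 0.1 or 1.4 ppm, where 0.0341% and again 0.0341% of all probes were called and 5 members in each had an unadjusted p under 0.05. DESeq2 called Eif2s1 as lower at 0.1 ppm. At 5 ppm 14 members rose and 2 fell, against 7.57% and 3.32% of all probes, and all 14 that rose were also higher at 180 ppm. Both doses were set against the same untreated libraries, so these are not independent results. The share of all probes with such an overlap was not counted. At 20 ppm 19 rose and none fell, against 10.2% and 4.49%, at 60 ppm 24 rose and 1 fell, against 10.2% and 5.25%, and at 180 ppm 23 rose and none fell, against 8.90% and 4.95%. The median change of the members was 0.19, 0.62, 0.76 and 0.77 from 5 to 180 ppm, where that of all probes was 0.39, 0.27, 0.18 and 0.10. With DESeq2 size factors in the same test the all-probe median was 0.24 at 5 ppm and 0 at the higher doses, the members' medians were -0.01, 0.40, 0.41 and 0.54, and the counts were 17 higher and 3 lower at 20 ppm (Eif2ak2, Eif3f and Eif4ebp2) and 19 higher and 3 lower at 60 ppm (Eif2ak2, Eif4ebp2 and Eif4h). With the number of detected probes as a covariate, chosen after the data were seen, 1 member was called at 5 ppm, Eif4g2, and 16, 18 and 19 at 20, 60 and 180 ppm.

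Over the order of the 7 doses, as a log2 change per dose step, 15 members rose and none fell in the crypt at day 8, against 3.69% and 5.78% of all probes. For the villus at day 8 25 rose and 1 fell, against 5.86% and 8.19%, and in the crypt at day 91 23 rose and 2 fell, against 10.7% and 7.86%. For the villus at day 91 32 rose and none fell, against 17.0% and 9.27%, and with DESeq2 size factors 23 rose and 4 fell, these being Eif2ak2, Eif2d, Eif4ebp2 and Eif4h. In all, 15 members were called in none of the dose comparisons or trends, and the share of all probes called in none was not counted.

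The eIF2 complex carries the initiator tRNA, and its beta subunit gene Eif2s2 was among the members with the smallest adjusted p at day 91. Eif2s2 in the villus at day 91 was at 135, 145, 167 and 297 CPM in the untreated libraries and at 493, 524, 558, 681 and 1099 CPM at 180 ppm. Every exposed library was above every untreated one. The log2 change was 1.84 ± 0.28 (SE, n = 5 against 4, adjusted p = 2.62e-07). Eif2s2 in the crypt at day 91 was at 195, 285, 346, 411 and 518 CPM untreated and at 546, 854, 899, 927 and 1018 CPM at 180 ppm, again with no overlap, a log2 change of 1.27 ± 0.25 (SE, n = 5 in each, adjusted p = 0.000232).

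Eif2s1, the alpha subunit that the kinases phosphorylate, rose in the same sets. Its log2 change at 180 ppm was 0.99 ± 0.26 (SE) in the crypt at day 91, 0.97 ± 0.30 in the villus at day 91, where the call was lost without the untreated library of mouse 5 (log2 change 0.75), and 0.95 in the villus at day 8, lost without mouse 528 or mouse 529. Eif2s2 in the villus at day 8 rose by 0.91 ± 0.26 (SE, adjusted p = 0.0265). The gamma subunit gene Eif2s3x was called at no dose, with 0.12 in the villus at day 91. Eif2a, which encodes an initiator tRNA carrier outside the eIF2 complex, rose by 1.02 ± 0.34 (SE) in the villus at day 91, a call that was lost without untreated mouse 3 or mouse 5 or without exposed mouse 485. Eif2d, which delivers tRNA without GTP, was not called.

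Of the 5 subunits of eIF2B, the exchange factor of eIF2, Eif2b1, Eif2b3 and Eif2b5 were called at 1 dose or more. Eif2b3 was at 0, 7.49, 12.3, 14.8 and 18.8 CPM in untreated crypt at day 8 and at 16.7, 22.6, 22.6, 32.6 and 39.2 CPM at 180 ppm. The groups overlapped in 1 untreated and 1 exposed library, and the log2 change was 1.24 ± 0.41 (SE, n = 5 in each, adjusted p = 0.0812). The gene rose in the crypt at day 91 too, by 1.13 ± 0.39 (SE, adjusted p = 0.0707). Each of these calls of Eif2b3 was lost in 5 of 10 refits without 1 library, at day 8 without mouse 46, 49, 50, 528 or 530 and at day 91 without mouse 5, 6, 7, 483 or 490. Eif2b5, the catalytic subunit, rose by 0.97 ± 0.34 (SE, adjusted p = 0.0865) in the crypt at day 91, lost in 8 of 10 such refits. Eif2b1 rose at 60 ppm in the villus at day 8, by 2.39 ± 0.72 (SE, adjusted p = 0.0334), from untreated levels of at most 4.43 CPM, a call lost without mouse 446. Eif2b5 rose at 60 ppm in the villus at day 91 too, by 1.07 ± 0.41 (SE, adjusted p = 0.0692), lost in 6 of 9 refits without 1 library. Eif2b4 was called only in the trend of the villus at day 91, at 0.12 ± 0.05 per dose step (SE, adjusted p = 0.0695), lost in 6 of 24 such refits and by DESeq2, and Eif2b2 was not called.

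None of the 4 eIF2 kinases was called in any dose comparison or trend. Of their 96 changes over the dose comparisons 6 had an unadjusted p under 0.05, and DESeq2 called 2. Of their 16 trends 3 had an unadjusted p under 0.05, and DESeq2 called 1. Eif2ak1 (HRI, regulated by heme) was at 24.3, 29.5, 62.1 and 62.3 CPM in untreated villus at day 91 and at 30.4, 37.1, 38.9, 40.6 and 58.2 CPM at 180 ppm. Eif2ak3 (PERK, of the endoplasmic reticulum) was at 36.4, 45.1, 64.4 and 66.3 CPM untreated and at 38.9, 63.3, 65.4, 79.8 and 96.1 CPM. Eif2ak4 (GCN2, which senses uncharged tRNA) was near its detection limit, with 0, 0, 4.21 and 7.39 CPM untreated and 0, 0, 0.564, 2.16 and 2.56 CPM. In each of these genes the groups overlapped, and the log2 changes were -0.11, 0.37 and -0.92.

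Eif2ak2 (PKR, activated by double-stranded RNA) was at 40.2, 65.3, 73.3 and 77.8 CPM in untreated villus at day 91 and at 38.6, 43.5, 47.8, 51.8 and 63.1 CPM at 180 ppm, a log2 change of -0.38 ± 0.31 (SE, adjusted p = 0.523). Its call depended on the tool and on the probe. DESeq2 called it as lower at 20 ppm (-0.84, adjusted p = 0.0339) and at 60 ppm (-1.0, adjusted p = 0.00914). A second probe of Eif2ak2, with 15433 counts in total against 25611, rose by 1.31 ± 0.42 (SE, adjusted p = 0.0287) at 180 ppm in that set.

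eIF1 and eIF1A guard the choice of the start codon. Eif1a was at 29.0, 126, 191 and 264 CPM in untreated villus at day 91 and at 399, 468, 558, 572 and 827 CPM at 180 ppm. The groups did not overlap, and the log2 change was 1.87 ± 0.29 (SE, n = 5 against 4, adjusted p = 3.57e-07). Its paralog Eif1ax was at 83.2, 98.6, 182 and 298 CPM untreated and at 399.5, 488, 495, 516 and 969 CPM, also without overlap, with a log2 change of 1.78 ± 0.29 (SE, adjusted p = 1.02e-06). The coding sequences of Eif1a and Eif1ax are nearly the same, so that reads of one can fall to the probe of the other.

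Eif1ax in the villus at day 8 stood at 169, 172, 222, 228 and 455 CPM untreated and at 325, 546, 570.2 and 678 CPM at 180 ppm. The 455 CPM came from the doubted library of mouse 48 and lay above the lowest exposed library. The log2 change was 1.08 ± 0.27 (SE, n = 4 against 5, adjusted p = 0.00586), and 1.42 without the doubted libraries. Eif1, which encodes eIF1 itself, was at 201, 223, 249 and 278 CPM in untreated villus at day 91 and at 419.6, 435, 468, 488 and 626 CPM at 180 ppm, a log2 change of 1.03 ± 0.22 (SE, adjusted p = 0.000248) with no overlap. Its paralog Eif1b had no count in untreated villus at day 91 and a highest value of 3.11 CPM at 180 ppm. Eif1ad, which is named for an eIF1A domain, was not called in any set.

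eIF3, the largest initiation factor, bridges the small subunit and eIF4G, and calls varied over its 13 subunits at day 91. The subunit genes Eif3b, Eif3d, Eif3j1 and Eif3l rose at 60 and 180 ppm in both compartments. Eif3d, whose product can itself bind the cap of some messages, was at 64.0, 116, 135, 161 and 214 CPM in untreated crypt at day 91 and at 221, 228, 322, 371 and 421 CPM at 180 ppm. No exposed library overlapped an untreated one, and the log2 change was 1.17 ± 0.21 (SE, n = 5 in each, adjusted p = 5.82e-05). Its villus level at day 91 was 64.8 to 80.3 CPM untreated and 115 to 253 CPM at 180 ppm, a change of 1.27 ± 0.24 (SE, adjusted p = 3.85e-05).

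Eif3l, which encodes a peripheral subunit, went from 32.2 to 134 CPM in untreated villus at day 91 to 147 to 392 CPM at 180 ppm, without overlap, a log2 change of 1.65 ± 0.34 (SE, adjusted p = 0.000184). Eif3j1, a loosely bound subunit, went from 60.1 to 116 CPM to 158 to 383 CPM, with no overlap and a change of 1.61 ± 0.34 (SE, adjusted p = 0.000192). Eif3d, Eif3j1 and Eif3l were higher from 5 ppm on in that set, by 1.02, 1.10 and 1.29, and Eif3b from 20 ppm on. With detected probes as a covariate none of these was called at 5 ppm. At 180 ppm the call of Eif3b in the villus (1.09 ± 0.31, SE, adjusted p = 0.0104) was lost without mouse 6 or mouse 484.

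In the villus at day 91 the calls of Eif3a, Eif3c, Eif3h, Eif3i and Eif3k came at 60 or 180 ppm. Eif3a, the largest subunit, changed by -0.48 at 5 ppm (adjusted p = 0.285) and rose by 1.21 ± 0.27 (SE, adjusted p = 0.000533) at 180 ppm. Eif3c, Eif3h and Eif3k rose there at 180 ppm by 0.67, 0.82 and 0.77, and each of these calls was lost without the untreated library of mouse 3, that of Eif3k also without mouse 5, 483, 484 or 490. Eif3i rose at 60 ppm by 1.39 ± 0.45 (SE, adjusted p = 0.0275), a call lost without mouse 3 or mouse 5, and had a change of 0.89 at 180 ppm that did not pass. Eif3f fell by 0.89 on the log2 scale at 5 ppm in the villus at day 91 (SE 0.26, adjusted p = 0.0243), a call lost without mouse 246 and with detected probes as a covariate, and fell by 0.91 at 60 ppm in the crypt at day 91 (SE 0.24, adjusted p = 0.00464). In that crypt set it ran from 130 to 321 CPM untreated and from 87.6 to 141 CPM at 60 ppm, with overlap, and at 180 ppm it was at 170 to 223 CPM. The plot of the eIF3 subunits by dose shows these values.

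**Figure D2:**
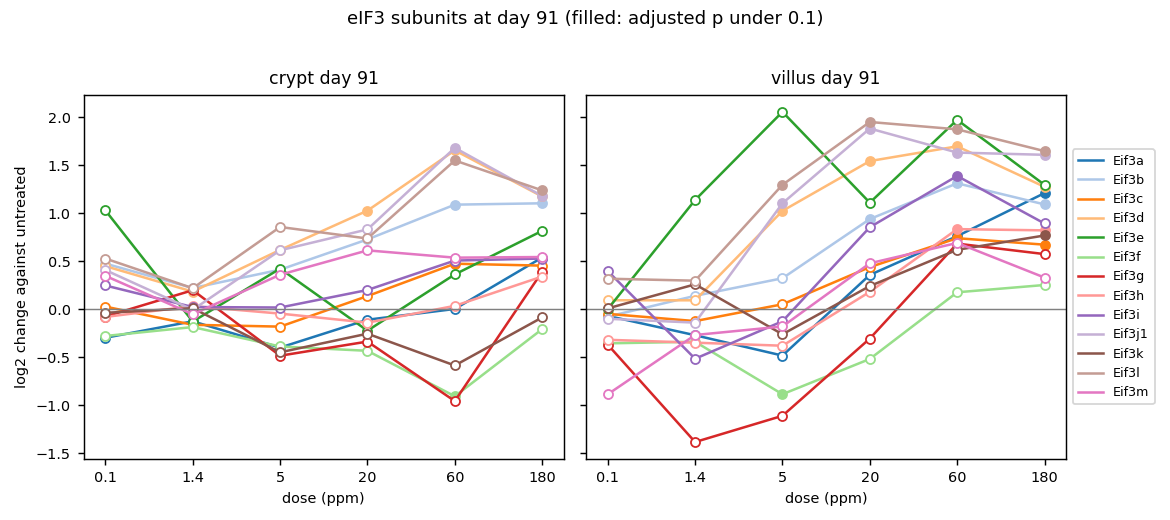
Log2 change of the 13 eIF3 subunit genes against untreated libraries (vertical axis) at each dose in ppm, evenly spaced (horizontal axis), for crypt and villus at day 91. Filled points have an adjusted p under 0.1. Eif3b, Eif3d, Eif3j1 and Eif3l have filled points at 60 and 180 ppm in both panels, and Eif3f falls by 0.91 in crypt at 60 ppm and by 0.89 in villus at 5 ppm. The changes of Eif3e in villus, where it had no count untreated, depend on the prior count.

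Eif3a, Eif3c and Eif3h were called at 180 ppm in the villus at day 8 as well as at day 91. At day 8 Eif3c was at 136.99, 145, 194, 205 and 234 CPM untreated and at 282, 294, 298 and 336 CPM at 180 ppm. The groups did not overlap, with a log2 change of 0.72 ± 0.18 (SE, n = 4 against 5, adjusted p = 0.00733). Eif3a and Eif3h rose in the same set by 0.86 and 0.92, where Eif3a lost its call without mouse 46, 49 or 528 and Eif3h without mouse 47 or 526. Eif3f rose at 60 ppm, by 0.87, lost without mouse 47. The subunits Eif3b, Eif3d, Eif3j1 and Eif3l had changes of 0.50, 0.63, 0.53 and 0.45 at 180 ppm and were not called at that dose. Over the doses of day 8 Eif3d (0.10 per step) and Eif3j1 (0.16) rose in the villus and Eif3b (0.15) in the crypt, calls that held in every refit without 1 library and every other processing with the same probe, and Eif3d rose in the crypt (0.09), lost without the doubted libraries. Whether the change at day 91 differed from that at day 8 was tested for each member, and no eIF3 subunit passed. Eif3e had no count in untreated villus at day 91, Eif3g was not called, and Eif3m was called in the villus trends alone (0.21 per step at day 8 and 0.17 at day 91). The day 8 call of Eif3m was lost without mouse 528, in separate fits and with thinned counts. Its day 91 call was lost by DESeq2, with DESeq2 size factors, with thinned counts and with detected probes as a covariate.

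eIF4A unwinds the leader of the message, and Eif4a1 was called in all 4 sets at 180 ppm. It was at 202, 239, 297, 308 and 318 CPM in untreated crypt at day 8 and at 341, 462, 481, 511 and 613 CPM at 180 ppm. The groups did not overlap, and the log2 change was 0.82 ± 0.21 (SE, n = 5 in each, adjusted p = 0.00785), or 0.73 without the doubted libraries (adjusted p = 0.0666). Its villus level at day 8 was 132, 179, 192, 238 and 275 CPM untreated and 278, 326, 374 and 433 CPM, a change of 0.79 ± 0.22 (SE, adjusted p = 0.0179) that lost its call without mouse 528 (0.70, adjusted p = 0.105).

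At day 91 Eif4a1 went from 335, 341, 348, 421 and 477 CPM to 445, 658, 771, 842 and 845 CPM in the crypt, with 1 exposed library below the highest untreated one, a log2 change of 0.89 ± 0.21 (SE, adjusted p = 0.00242). In the villus it went from 147, 147, 211 and 262 CPM to 371, 374, 400.2, 524 and 597 CPM, with no overlap and a change of 1.24 ± 0.23 (SE, adjusted p = 1.82e-05). Its paralog Eif4a2 was at 183, 264, 323, 457 and 538 CPM in untreated crypt at day 91 and at 227, 395, 419.7, 454 and 489.8 CPM at 180 ppm, ranges that overlapped, with a change of 0.17 ± 0.23 (SE, adjusted p = 0.795). At 60 ppm in that set Eif4a2 rose by 1.18, and in the villus at 180 ppm by 0.99 ± 0.25 (SE, adjusted p = 0.00355). Eif4a3, the helicase of the exon junction complex, fell by 0.87 on the log2 scale at 5 ppm in the villus at day 91 (SE 0.30, adjusted p = 0.0583), a call lost with detected probes as a covariate, with thinned counts and in refits without 1 library, and rose by 1.25 at 60 ppm in the villus at day 8.

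eIF5A helps ribosomes through difficult stretches, and Eif5a was the other member called in all 4 sets at 180 ppm. It was at 605, 699.6, 1097, 1145 and 1149.5 CPM in untreated crypt at day 8 and at 1442, 1629, 1779, 1840.2 and 2006 CPM at 180 ppm. Every exposed library was above every untreated one. The log2 change was 0.89 ± 0.21 (SE, n = 5 in each, adjusted p = 0.00307), or 0.77 without the doubted libraries (adjusted p = 0.0357). Its villus level at day 8 was 467, 581, 583, 655 and 1122 CPM untreated, the last from mouse 48, and 1008, 1453, 1459 and 1564 CPM at 180 ppm. There the groups overlapped in mouse 48 alone, and the change was 1.01 ± 0.22 (SE, adjusted p = 0.000949), or 1.26 without the doubted libraries.

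At day 91 Eif5a went from 759.5, 804, 807, 1226 and 1333 CPM to 1605, 1927, 2087, 2291 and 2551 CPM in the crypt, without overlap, a log2 change of 1.08 ± 0.21 (SE, adjusted p = 0.000166). In the villus it went from 338, 346, 449.8 and 757 CPM to 928, 1217, 1327, 1477 and 1855 CPM, again without overlap, a change of 1.52 ± 0.23 (SE, adjusted p = 1.93e-07). The paralog Eif5a2 was at or near 0, with no count in untreated villus at day 91 and 1 library with a count at 180 ppm, at 1.98 CPM.

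**Figure D3:**
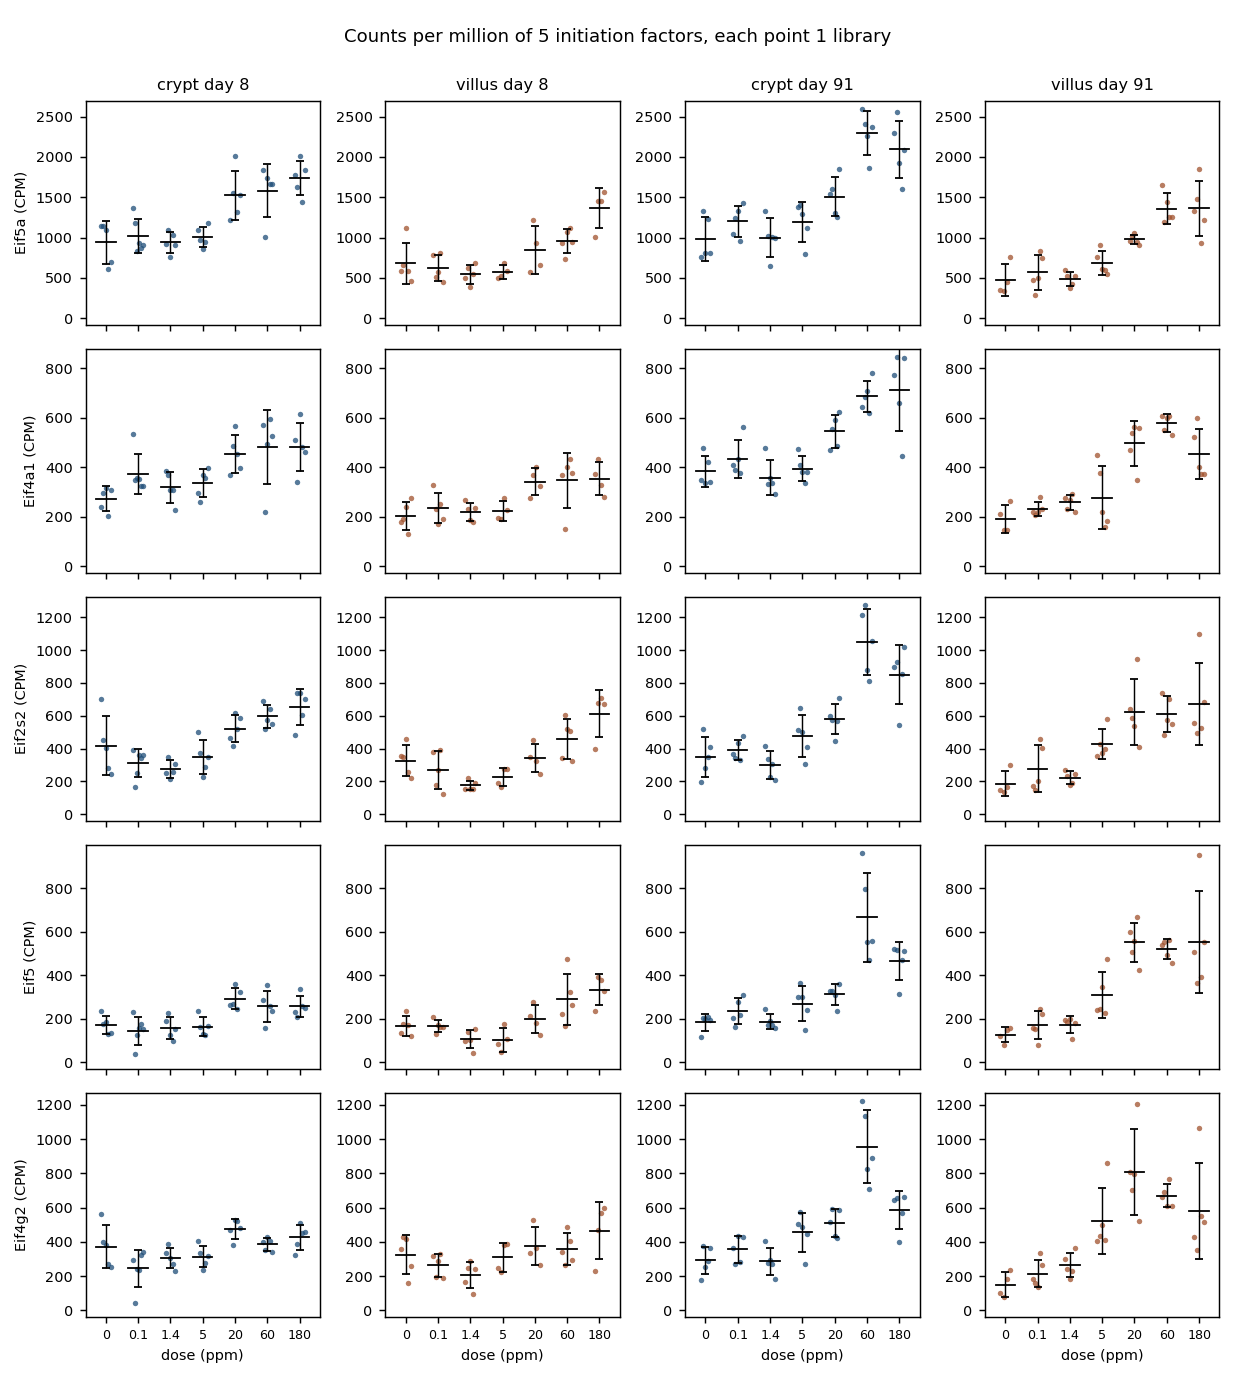
CPM of Eif5a, Eif4a1, Eif2s2, Eif5 and Eif4g2 (rows, vertical axes) by dose in ppm, evenly spaced (horizontal axes), in crypt and villus at day 8 and day 91 (columns). Each point is 1 library, the wide bar is the group mean and the whiskers are 1 SD. At 180 ppm Eif5a libraries sit at 1442 to 2006 CPM in crypt at day 8 and at 1605 to 2551 CPM in crypt at day 91, above all untreated ones of their set.

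The stretches before the start sites of Eif4a1 and Eif5a are shown because these genes were called in every set at 180 ppm, with that of Eif4g1, the scaffold that binds eIF4A. They run from 250 to 11 bases before the RefSeq start site (assembly GRCm38.p6), 5′ to 3′ on the strand of the gene, with the E-box hexamer CACGTG, which reads the same on both strands, in capitals. The Eif4a1 stretch is chr11:69672434-69672673 on the minus strand with the hexamer starting 189 bases before the start. That of Eif4g1 is chr16:20672477-20672716 on the plus strand with it 54 bases before the start. That of Eif5a is chr11:69921397-69921636 on the minus strand with it 74 bases before the start used. Of the 6 start sites listed for Eif5a, the one used had the hexamer nearest upstream in a stretch free of exons. The presence of the hexamer there was thus set by the choice. The Eif5a stretch lies inside the gene's full span, chr11:69916712-69921958.
Eif4a1: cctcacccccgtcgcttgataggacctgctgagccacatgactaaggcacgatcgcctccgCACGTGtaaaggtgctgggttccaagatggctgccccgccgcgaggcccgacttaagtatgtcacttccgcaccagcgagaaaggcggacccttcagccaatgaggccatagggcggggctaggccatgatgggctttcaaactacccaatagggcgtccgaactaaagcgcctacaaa
Eif5a: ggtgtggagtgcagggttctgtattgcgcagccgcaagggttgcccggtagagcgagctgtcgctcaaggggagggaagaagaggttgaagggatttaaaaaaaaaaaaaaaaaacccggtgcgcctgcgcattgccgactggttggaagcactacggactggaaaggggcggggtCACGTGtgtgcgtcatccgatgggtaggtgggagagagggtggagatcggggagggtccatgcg
Eif4g1: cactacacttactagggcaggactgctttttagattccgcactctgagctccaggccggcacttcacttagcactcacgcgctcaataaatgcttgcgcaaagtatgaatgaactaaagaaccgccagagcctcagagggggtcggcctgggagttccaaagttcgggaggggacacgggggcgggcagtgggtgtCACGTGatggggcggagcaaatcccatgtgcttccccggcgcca
Of 43 members with a promoter window in the table, 10 held CACGTG (23.3%), where 2187 of 27025 genes did (8.09%). A gene with several start sites was counted when any of its windows held the hexamer. For these shares the whole window was searched, and not only the stretch from 250 to 11 bases before the start. The hexamer was in 5 of 20 members higher at 180 ppm in at least 1 set (25%) and in 5 of 23 members higher in none (21.7%). A match is a description of the letters and not of a bound factor.

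eIF4G is the scaffold of the cap complex, and 2 of its 3 genes rose at day 91. Eif4g2, which encodes the cap-independent homolog DAP5, was at 79.7, 101, 185 and 235 CPM in untreated villus at day 91 and at 353, 428, 514, 550.5 and 1064 CPM at 180 ppm. The groups did not overlap, and the log2 change was 1.94 ± 0.31 (SE, n = 5 against 4, adjusted p = 6.8e-07). At 5 ppm it was at 402 to 860.5 CPM, a log2 change of 1.78 ± 0.31 (SE, adjusted p = 6.76e-05), and it was the 1 member called there in every refit without 1 library and every other processing with the same probe. It changed in the crypt at day 91 by 1.01 ± 0.27 (SE, adjusted p = 0.0124). A second Eif4g2 probe with 3615 counts in total, against 213567, changed by -0.94 ± 0.66 (SE, adjusted p = 0.438) at 180 ppm and by -0.89 (adjusted p = 0.431) at 5 ppm in the villus.

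Eif4g1 was at 193, 226, 228 and 309.8 CPM in untreated villus at day 91 and at 326, 346, 425, 431 and 477 CPM at 180 ppm, with no overlap and a log2 change of 0.74 ± 0.18 (SE, adjusted p = 0.00197). In the crypt it rose by 0.57 ± 0.17 (SE, adjusted p = 0.0238), a call lost without mouse 6 or mouse 484. Eif4g3, the third paralog, was at 65.1, 93.9, 94.2 and 121 CPM untreated and at 80.9, 99.4, 112, 113 and 136 CPM in the villus at day 91. Its groups overlapped, the change was 0.21 ± 0.24 (SE, adjusted p = 0.668), and no dose called it in any set.

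Among the cap-binding genes Eif4e2 was called at 180 ppm at day 91 and Eif4e was not. Eif4e2, which encodes the weak cap binder 4EHP known as a repressor, was at 43.4, 74.4, 155 and 186 CPM in untreated villus at day 91 and at 223, 285, 320.1, 380.5 and 713 CPM at 180 ppm. The groups did not overlap, with a log2 change of 1.72 ± 0.30 (SE, adjusted p = 5.55e-06), and at 5 ppm it rose by 1.11, a call lost without mouse 3 and with detected probes as a covariate. Eif4e2 rose in the crypt at day 91 by 0.85 ± 0.27 (SE, adjusted p = 0.0399), lost without mouse 3 or mouse 490. Eif4e, the main cap-binding protein, was at 2.99, 17.9, 34.0 and 41.0 CPM untreated and at 35.6, 36.7, 38.2, 43.2 and 44.5 CPM, ranges that overlapped, a change of 0.66 ± 0.37 (SE, adjusted p = 0.303). Over the doses Eif4e rose in that set by 0.12 ± 0.05 per step (SE, adjusted p = 0.0581), a call lost in 2 of 24 refits without 1 library, by DESeq2 and in 4 other settings. The difference between Eif4e2 and Eif4e was not tested. Eif4e rose at 60 ppm in the villus at day 8, by 0.98, a call lost in refits without 1 library. Eif4e1b, known from oocytes, was called in the trends of day 91 alone (0.31 per step in the crypt and again 0.31 in the villus). These rest on few counts, 641 in total with a median of 0 CPM, and on none in crypt at 0.1 and 1.4 ppm. The villus call was lost in 5 of 24 refits without 1 library, by DESeq2 and with its size factors. It was also lost with edgeR's default quasi-likelihood form, with thinned counts and with detected probes as a covariate. The crypt call held in every refit without 1 library and in the 10 other settings that gave an adjusted p with the same probe. DESeq2 gave none for it. Eif4e3 was not called. Eif4b and Eif4h assist the helicase. Eif4b rose over the doses in the villus, by 0.11 per step at day 8 and 0.08 at day 91. The call at day 91 was lost by DESeq2 and with its size factors. Eif4b passed at no single dose, where DESeq2 called it as lower at 60 ppm in the crypt at day 91. The fit without the doubted libraries called it as higher at 60 and 180 ppm in the villus at day 8 (0.74 and 0.69). Eif4h fell over the doses in the crypt at day 91, by 0.11 on the log2 scale per step (adjusted p = 0.0985), a call lost in 13 of 25 refits without 1 library. At single doses Eif4h did not pass, and DESeq2 called it as lower at 60 ppm in crypt (-1.14) and villus (-1.12) at day 91.

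The 4E-BPs hold back cap-dependent initiation, and Eif4ebp1 and Eif4ebp3 moved in opposite directions in the villus at day 8. Eif4ebp1 was at 1.28, 7.38, 11.7, 18.1 and 23.5 CPM untreated and at 27.9, 27.9, 55.1 and 55.4 CPM at 180 ppm. Every exposed library was above every untreated one, with a log2 change of 1.62 ± 0.43 (SE, n = 4 against 5, adjusted p = 0.0125). At 60 ppm it rose by 1.75 ± 0.42 (SE, adjusted p = 0.00369) in the villus and by 1.22 ± 0.39 (SE, adjusted p = 0.098) in the crypt, and the crypt call was lost without the doubted libraries (adjusted p = 0.320).

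In the crypt at day 8 Eif4ebp1 was at 7.31, 14.7, 14.8, 17.2 and 27.1 CPM untreated and at 13.6, 31.5, 40.1, 47.7 and 50.9 CPM at 180 ppm, which overlapped and did not pass (1.13 ± 0.39, SE, adjusted p = 0.107). At day 91 it was not called at any dose. In the villus it ran from 0.766 to 30.2 CPM untreated and from 9.89 to 46.8 CPM at 180 ppm, a change of 0.74 ± 0.47 (SE, adjusted p = 0.374), and in the crypt the change was 0.55 ± 0.38 (SE, adjusted p = 0.527). The test of day 91 against day 8 did not call Eif4ebp1.

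Eif4ebp3 was at 0, 1.20, 8.86, 10.5 and 26.4 CPM in untreated villus at day 8 and at 0 in all 4 libraries at 180 ppm. With 3 counts over those libraries as the limit (0.238 CPM), it was at least 39.5-fold lower (adjusted p = 0.00585), a bound that was 21.6-fold without the untreated library of mouse 49. It also fell over dose steps, by 0.60 on the log2 scale per step (SE 0.13, adjusted p = 0.000218), which rests on few counts, at most 62 in an untreated library. At day 91 the untreated villus libraries had 0, 0, 0 and 5.98 CPM and those at 180 ppm 0, 0, 2.54, 3.11 and 3.72 CPM, and it was not called. Eif4ebp2 fell by 1.62 on the log2 scale at 60 ppm in the villus at day 91 (SE 0.60, adjusted p = 0.0609), where untreated libraries ran from 0.383 to 41.1 CPM. That call was lost in 4 of 9 refits without 1 library, those without mouse 3, 5, 403 or 405, and the change was -0.64 (adjusted p = 0.677) without mouse 5. It was also lost with edgeR's default quasi-likelihood form and with detected probes as a covariate. Eif4enif1, the eIF4E transporter, was called at no dose.

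**Figure D4:**
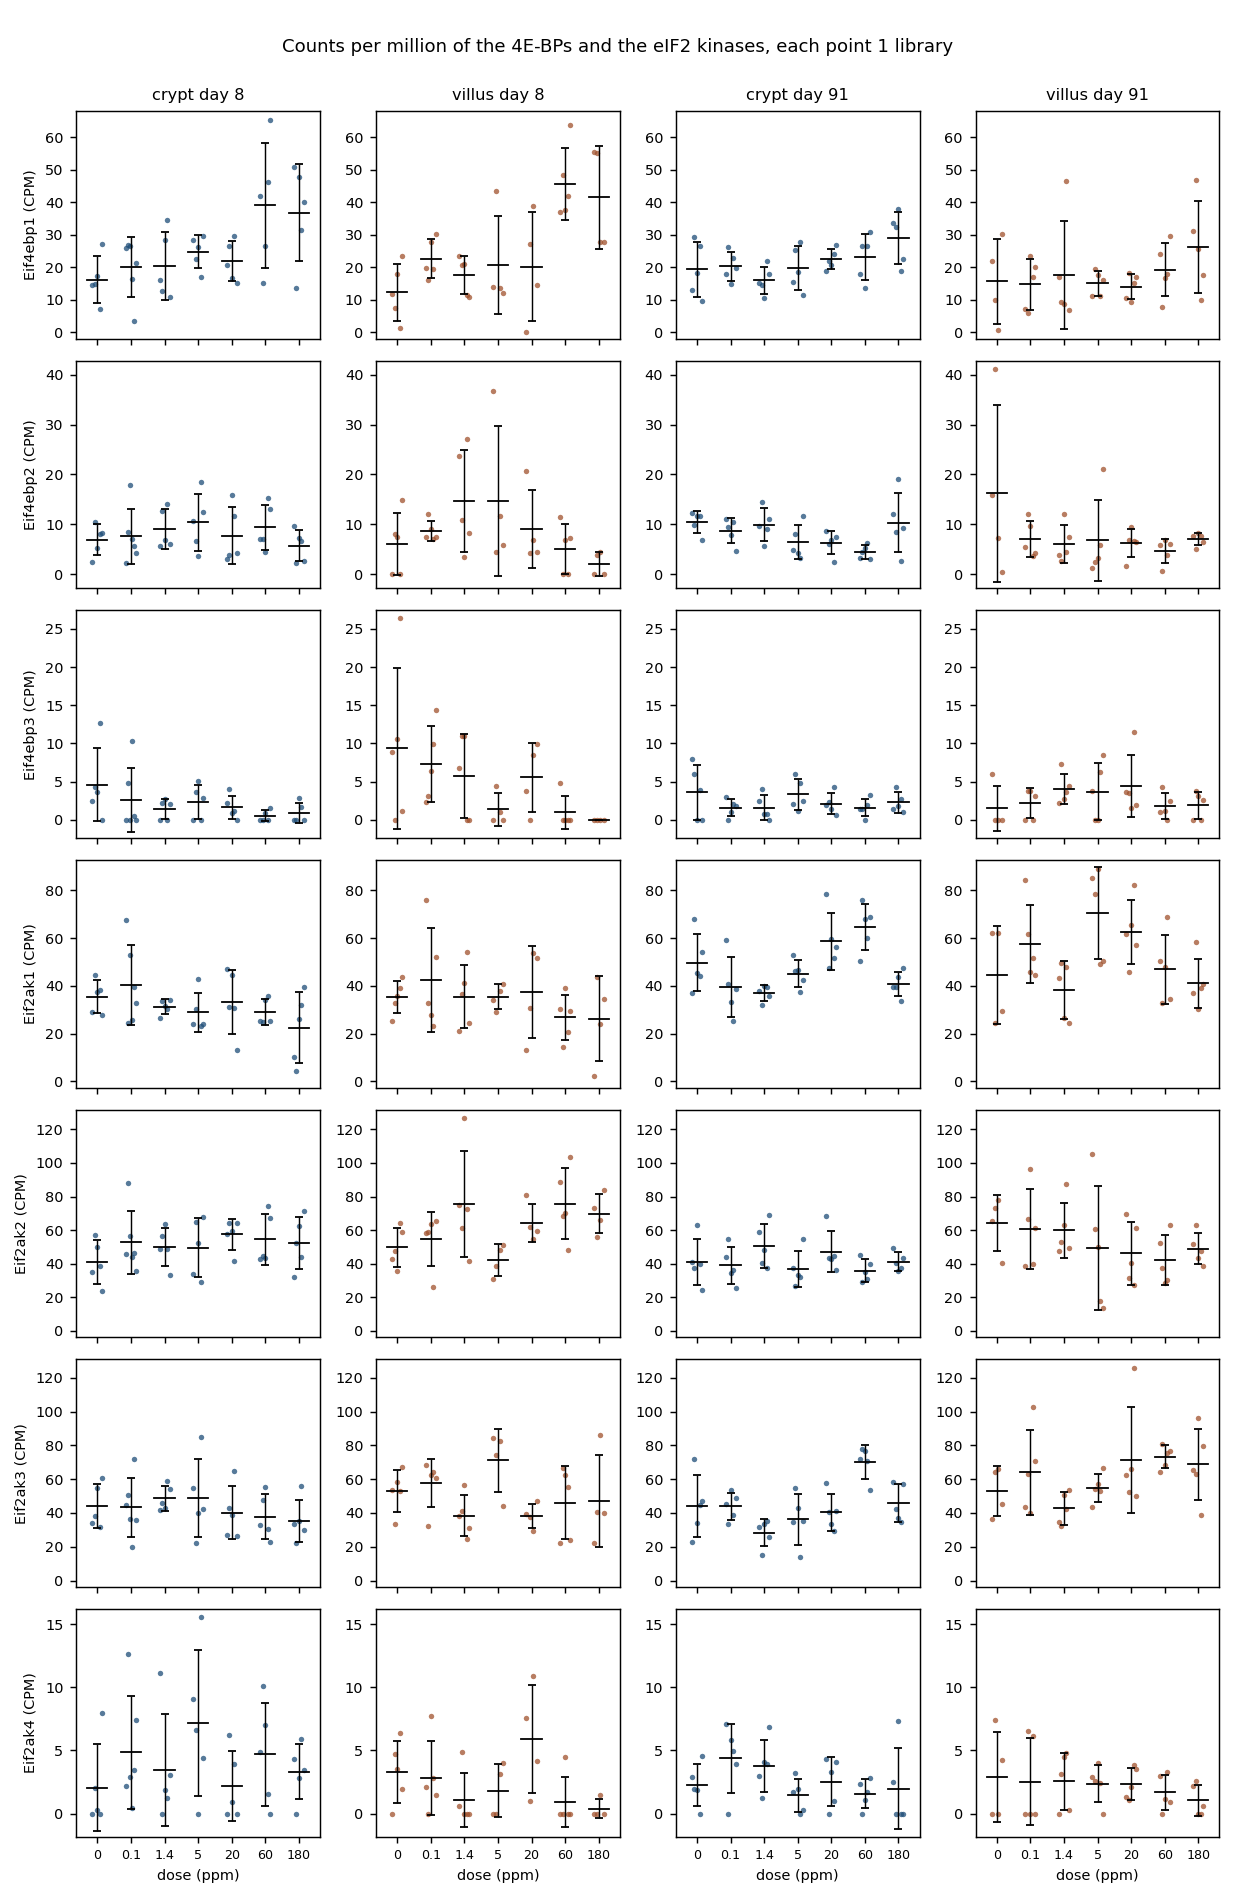
CPM of the 3 4E-BP genes and 4 eIF2 kinase genes (rows, vertical axes) by dose in ppm, evenly spaced (horizontal axes), in crypt and villus at day 8 and day 91 (columns). Each point is 1 library, the wide bar is the group mean and the whiskers are 1 SD. Eif4ebp1 stands at 27.9 to 55.4 CPM in villus at 180 ppm on day 8, Eif4ebp3 is at 0 in those libraries, and the kinase groups overlap at 180 ppm.

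eIF5 makes eIF2 hydrolyse its GTP once the start codon is found. Eif5 had the smallest adjusted p among the members in the villus at day 91 and 180 ppm. It was at 79.1, 119, 149 and 157 CPM untreated and at 364, 392, 506, 554 and 950.0 CPM at 180 ppm. The groups did not overlap, and the level was 4.35-fold higher, a log2 change of 2.12 ± 0.30 (SE, n = 5 against 4, adjusted p = 4.96e-08). Eif5 rose from 5 ppm on in that set (1.27, 2.11, 2.03 and 2.12 from 5 to 180 ppm), in the crypt at day 91 by 1.34 ± 0.27 (SE, adjusted p = 0.000299) and in the villus at day 8 by 0.99. All 4 probes of Eif5 rose in the villus at day 91 and 180 ppm, by 2.12, 1.24, 1.11 and 2.30. Eif5b, which joins the ribosomal subunits, rose by 1.19 ± 0.26 (SE, adjusted p = 0.000278) in the villus at day 91 and was called in no other set at 180 ppm.

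eIF6 keeps the large subunit from joining too early. Eif6 was at 346, 451, 476, 511 and 520.4 CPM in untreated crypt at day 91 and at 697, 886, 1027, 1060.4 and 1107 CPM at 180 ppm. There was no overlap, and the log2 change of 1.05 ± 0.19 (SE, n = 5 in each, adjusted p = 4.84e-05) came beside 1.58 ± 0.19 (SE, adjusted p = 7.53e-10) at 60 ppm. Its crypt level at day 8 was 417, 476, 559, 577 and 626 CPM untreated and 386, 443, 536, 561 and 622 CPM at 180 ppm, ranges that overlapped, a change of -0.06 ± 0.19 (SE, adjusted p = 0.954). Eif6 rose in the villus at day 91 by 0.95 ± 0.20 (SE, adjusted p = 0.000265). A second Eif6 probe, with 42316 counts in total against 395100, changed by 0.19 ± 0.28 (SE) in the crypt and by -0.02 ± 0.30 in the villus at day 91 and 180 ppm, and was called in neither.

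The change at 180 ppm was compared between days and between compartments. Between days 1 member was called in the crypt, Eif6, whose change was larger at day 91 by 1.11 ± 0.27 (SE, adjusted p = 0.0714), against 0.110% of all probes. In the villus Eif4g2 was called, larger by 1.42 ± 0.42 (SE, adjusted p = 0.0956), against 0.971%. Each of these calls was lost in 11 refits without 1 library, of 20 for Eif6 and 18 for Eif4g2. Without mouse 90, which is in neither contrast, both calls were lost. Mouse 90 is labelled 0.1 ppm for 7 days, and its number lies apart from 126 to 130, the other day 8 mice of that dose. Between compartments no member was called at day 8 or at day 91, where 0.00379% and 0.224% of all probes were, with 1 and 7 members at an unadjusted p under 0.05 and none by DESeq2. Members called in the villus and not in the crypt were therefore not shown to differ between them.

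Untreated crypt and villus were also compared, since crypts hold the dividing cells. At day 8 no member was called, against 0.637% of all probes, with 12 members at an unadjusted p under 0.05 and 4 called by DESeq2. Without the doubted libraries 7 were higher in the crypt, and with the mouse as a block 2 were, Eif1ax and Eif3d. At day 91 13 members were higher in the crypt and none in the villus, against 6.98% and 3.89% of all probes, with a median difference of 0.61 for the members and 0.17 for all probes. The 3 with the smallest adjusted p were Eif5a at 1.06 ± 0.23 (SE), Eif1ax at 1.30 ± 0.28 and Eif4a1 at 1.0 ± 0.23. The count was 6 without the untreated villus library of mouse 5, 7 without that of mouse 3, and 6 with detected probes as a covariate.

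Of the calls at 180 ppm, Eif5a and Eif4a1 in the crypt at day 8 held in every refit without 1 library and in every other processing with the same probe. The same was so for 6 of 11 in the villus at day 8 (Eif1ax, Eif2s2, Eif4ebp1, Eif4ebp3, Eif5 and Eif5a), for 14 of 18 in the crypt at day 91 and for 17 of 23 in the villus at day 91. Those 17 were Eif1, Eif1a, Eif1ax, Eif2s2, Eif3a, Eif3d, Eif3j1, Eif3l, Eif4a1, Eif4a2, Eif4e2, Eif4g1, Eif4g2, Eif5, Eif5a, Eif5b and Eif6. At 5 ppm in the same set 1 of 16 held. The plot of probes of the same gene shows where another probe differed.

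**Figure D5:**
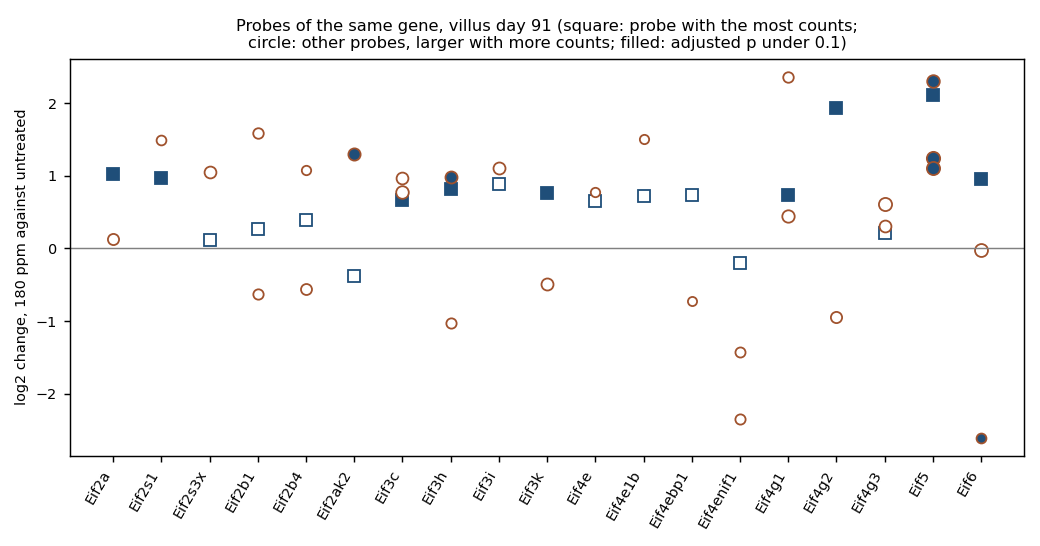
Log2 change at 180 ppm against untreated in the villus at day 91 (vertical axis) for each probe of the 19 members with more than 1 tested probe (horizontal axis). Squares are the probe with the most counts, circles the others, and filled symbols have an adjusted p under 0.1. The Eif5 probes lie between 1.11 and 2.30, while the second probes of Eif6 and Eif4g2 lie at -0.02 and -0.94.

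Genes of the later steps of translation were read from a list of 17 elongation, release and recycling factors, of which 16 were tested. At 180 ppm 1, 5, 3 and 7 rose in crypt day 8, villus day 8, crypt day 91 and villus day 91, none fell, against 1.05%, 2.5%, 3.80% and 8.90% of all probes higher, and DESeq2 called 5, 6, 3 and 5 as higher. The medians were 0.54, 0.47, 0.51 and 0.95, where those of all probes in these sets lay between -0.09 and 0.10. The tRNA carrier gene Eef1a1 rose in the villus at day 91 by 1.49 ± 0.21 (SE, adjusted p = 1.87e-08), Eef2, the translocase, by 1.39 ± 0.20 (SE, adjusted p = 5.87e-08) and Eef1g, of the exchange factor of eEF1A, by 2.03 ± 0.30 (SE, adjusted p = 1.33e-07).

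A list of 17 genes of mTORC1 and cap-binding control, with 16 tested, had no calls in the first 3 of these sets (0, 1 and 4 at an unadjusted p under 0.05, and 0, 1 and 2 lower by DESeq2). In the villus at day 91 there were 2 calls of a higher and 1 of a lower level, against 8.90% and 4.95% of all probes. DESeq2 called 1 as higher and 1 as lower there. Paip1, a partner of the poly(A)-binding protein, rose by 1.42 ± 0.26 (SE, adjusted p = 2.11e-05), Rps6kb1, an S6 kinase, rose by 0.99 ± 0.35 (SE, adjusted p = 0.0503) and Mknk1, a kinase of eIF4E, fell by 2.10 on the log2 scale (SE 0.57, adjusted p = 0.00684). The medians of the list lay between -0.03 and 0.04 in the 4 sets.

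The integrated stress response is set off by phosphorylated eIF2. Of 20 of its targets 1, 3, 3 and 6 rose at 180 ppm in the same order of sets. Of all probes 1.05%, 2.5%, 3.80% and 8.90% were higher. Trib3 in the villus at day 91 was the 1 target that fell, against 4.95% of all probes lower in that set. DESeq2 called 3, 4, 2 and 3 as higher, and 1 as lower in the crypt at day 8 and 1 in the villus at day 91. The medians were 0.30, 0.29, 0.58 and 0.58. Aars, an aminoacyl-tRNA synthetase, rose in the villus at day 91 by 1.20 ± 0.23 (SE, adjusted p = 3.68e-05), Atf5, a stress transcription factor, by 1.89 ± 0.41 (SE, adjusted p = 0.000293) and Atf4, the main effector, by 0.75 ± 0.23 (SE, adjusted p = 0.0186).

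Markers of cell types moved with dose beside the members. The summed level of 8 proliferation markers went from 196 to 522 CPM untreated to 555 to 1096 CPM at 180 ppm in the crypt at day 8, with no overlap, and from 335 to 602 CPM to 594 to 1089 CPM in the crypt at day 91, where the ranges overlapped. The villus sum at day 91 was 52.1 to 259.7 CPM untreated and 107 to 189.5 CPM, which overlapped. At 180 ppm 0, 0, 1 and 1 of the 8 were called as higher in crypt day 8, villus day 8, crypt day 91 and villus day 91. Of 5 T cell markers 4, 5, 4 and 5 fell, with the sum in the villus at day 91 going from 391 to 571 CPM to 56.4 to 145 CPM, and the sums did not overlap in any of the 4 sets. Of 7 enterocyte markers 3 fell in each set, and the sum of the 7 in the crypt at day 8 went from 21598 to 57820.5 CPM to 6002 to 13332 CPM without overlap. At 180 ppm the sum overlapped the untreated range in the other sets. In the villus at day 91 it was at 51677 to 71017 CPM untreated (median 59907) and at 25250.5 to 87650.5 CPM at 180 ppm (median 70493). At 20 ppm there it was higher without overlap, at 112267 to 176133 CPM. Goblet cell markers were at 978 to 2200.4 CPM in untreated villus at day 91, at 4421 to 4997 CPM at 60 ppm and at 2488 to 4562 CPM at 180 ppm, both above the untreated range, and at 964 to 1529.6 CPM untreated and 472 to 869 CPM at 180 ppm in the crypt at day 8. Plasma cell markers in the crypt at day 8 went from 7114 to 11894 CPM to 2329 to 4081 CPM at 180 ppm, and smooth muscle markers in the crypt at day 91 from 834 to 1595 CPM to 423 to 617 CPM at 60 ppm, each without overlap. At 180 ppm in the crypt at day 91 smooth muscle markers were at 604 to 1258 CPM, which overlapped the untreated range. Plasma cell markers there were at 8720 to 16927 CPM untreated and 6971 to 12302 CPM at 180 ppm, which also overlapped. Pancreatic acinar markers ranged over libraries from 8.73 to 140597 CPM among untreated crypt libraries of day 91, and none of 10 was called at 180 ppm. With the acinar sum as a covariate 268 of the 271 called values of the members kept direction and call, and 3 lost the call. The part of the other markers in the changes of the initiation factors was not tested.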

How the data were processed

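The deposited table holds raw counts that the authors made by aligning TempO-Seq reads to the probe sequences, with bcl2fastq 2.17.1.14 and Bowtie named in the submitters' processing notes; the genome build is not given in the sources used here. The table has 30146 probes and 137 libraries, and samples were grouped by compartment, dose and day from the labels. Counts were fitted in R 4.3.3 with edgeR 4.0.16 (quasi-likelihood, TMM scaling, filterByExpr, prior count 2) over all 28 groups, and p-values were adjusted by the Benjamini-Hochberg method over 26365 probes with a threshold of 0.1. CPM values use TMM library sizes. The trend is the log2 change per step of the 7 ordered doses. Scripts were tested on simulated data.

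Values per library are given for the 4 members with the smallest adjusted p at 180 ppm in each compartment and day, for the eIF2 kinases and 4E-BPs, and for paralog groups with a member that passed, and from each other list the 3 genes with the smallest adjusted p are named. The members and lists were chosen with earlier results of these data known. Crypt and villus libraries with the same number come from the same mouse; their deviations from the group means correlated with a median of 0.112 over 66 pairs, against -0.0299 over 269 pairs of other mice. Alternatives were DESeq2 1.42.0, its size factors, no filter on low counts, edgeR's default quasi-likelihood form, separate fits, thinned counts, summed probes, fewer libraries, an acinar covariate, a covariate of detected probes, the mouse as a block, the next probe of a gene, and 96 refits without 1 library. Each library of a group came from another mouse. Probe sequences were not used here, so probes of near-identical paralogs may share reads.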

Additional observations from a re-analysis of the deposited data

Results flagged for a closer look

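In 8 of 104 groups of libraries, over the members with values per library, the highest library lay far from the others by Dixon's test, which flags about 1 in 20 groups by chance. In untreated villus at day 8 these were Eif5a at 1122 CPM and Eif1ax at 455 CPM, both in mouse 48, whose library also carried the high crypt markers. In villus at 180 ppm on day 91 they were Eif1ax at 969 CPM and Eif4g2 at 1064 CPM, both in mouse 485, and Eif5a2 at 1.98 CPM in mouse 488. The others were Eif2ak4 at 7.97 CPM in untreated crypt at day 8 and at 1.49 CPM in villus at 180 ppm on day 8, and Eif4ebp3 at 5.98 CPM in untreated villus at day 91.

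Between day 8 and day 91 the effect of 180 ppm differed by an interaction term for 2 members. For Eif6 in crypt the log2 change was larger at day 91 by 1.11, with an adjusted p of 0.0714 from edgeR. For Eif4g2 in villus it was larger by 1.42, with an adjusted p of 0.0956. Each call was lost in 11 refits without 1 library and in 8 of 10 other settings with the same probe, and the next probe gave 0.08 for Eif6 and -0.82 for Eif4g2, neither of them called.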

How the results depend on the processing

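Of 271 called values, 172 kept the call in every refit and every setting that gave an adjusted p with the same probe. The other 99 lost it in at least 1, and the causes were not tested. Among the 172 is the trend of Eif4e1b in crypt at day 91, for which DESeq2 gave no adjusted p. Refits without 1 library gave member counts, at 60 and 180 ppm, of 0 to 6 and 2 to 6 in crypt at day 8, 6 to 14 and 8 to 16 in villus at day 8, 19 to 23 and 15 to 18 in crypt at day 91, and 20 to 27 and 19 to 26 in villus at day 91. They gave 0 to 8 at 1.4 ppm, 0 to 1 at 5 ppm and 0 to 2 at 20 ppm in villus at day 8, 1 to 2 at 20 ppm in crypt at day 91, and 11 to 19 and 17 to 22 at 5 and 20 ppm in villus at day 91. Trends gave 11 to 17, 24 to 29, 22 to 26 and 28 to 36, untreated compartments 0 to 5 and 6 to 19, and day differences 0 to 1 in crypt and 0 to 3 in villus.

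In crypt at day 8, DESeq2 called 2, 7 and 12 members at 20, 60 and 180 ppm, and summed probes 1, 7 and 9. At 180 ppm size factors called 7, detected probes 10, separate fits 9 and thinned counts 6. At 60 ppm the default form called 2 and the fit without the doubted libraries 0, and without these the trend called 10.
In villus at day 8, DESeq2 called 8, 2 and 5 at 1.4, 5 and 20 ppm, detected probes 1, 2 and 17 at 1.4, 20 and 180 ppm, and separate fits 0, 0, 5 and 7 at 1.4, 20, 60 and 180 ppm. Summed probes called 5 and 17 at 20 and 180 ppm, thinned counts 3 at 20 ppm, and without the doubted libraries 0, 2, 14 and 16 were called at 1.4, 20, 60 and 180 ppm.
At day 91, separate fits called 5 and 16 at 5 and 20 ppm in crypt, DESeq2 called 1 at 0.1 ppm in villus and detected probes 1 at 5 ppm in villus. Between untreated compartments DESeq2 called 4 at day 8, the fit without the doubted libraries 7 and the mouse as a block 2, and detected probes called 6 at day 91. The block ended the call of Eif2a at day 91 and changed no other cross-compartment call past 1.5 times.
The day difference in crypt was called for 0 members with size factors, detected probes, the default form, summed probes, thinned counts, no filter, without the doubted libraries and without mouse 90. In villus DESeq2 and the default form called 3, and the acinar covariate and the remaining settings named for crypt called 0.

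The next probe of a gene kept direction and call in 18 of 100 values, lost the call in 57 and reversed in 25. Reversed log2 values were, for Eif2s1, -0.10 and -0.15 in crypt at day 91 (180 and 60 ppm) and -0.59 and -0.14 in villus at day 8 (180 ppm and trend). For Eif2a they were -0.31 in crypt at day 91 (60 ppm) and -0.066, -0.016 and -0.020 in villus at day 91 (5 ppm, 20 ppm, trend). For Eif6 they were -0.11 in crypt (60 ppm) and -0.40, -0.043, -0.016 and -0.0017 in villus at day 91 (5, 20, 180 ppm, trend). For Eif4g2 they were -0.89, -0.18, -0.63, -0.94 and -0.055 in villus at day 91 (5, 20, 60, 180 ppm, trend), -1.91 between untreated compartments and -0.82 between days. Eif3k gave -0.49 and -0.087 in villus at day 91 (180 ppm, trend), Eif4g1 -0.089 in crypt at day 91 (60 ppm), Eif4e -1.90 and Eif4ebp1 -1.20 in villus at day 8 (60 ppm). These probes had from 192 to 42316 counts in all.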
